A study of Mus musculus with 28 samples.

Results

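The comparison described here sets livers of Fah-/- p53-/- mice against livers of Fah-/- mice, both kept on a reduced dose of NTBC. Its members are the 8 arrays that the labels assign to these genotypes at that dose, 4 per genotype, of 28 arrays in the series. All features measured on them enter the comparison. Each array was hybridised with Cy3-labelled RNA of a single liver sample on a single-colour Agilent mouse gene expression design. The Fah-/- p53-/- group lacks both fumarylacetoacetate hydrolase (Fah) and p53 (gene Trp53). The Fah-/- group lacks Fah alone, so no array of the comparison comes from a liver with intact Fah. The labels give no strain, age or sex, and they do not say whether the 4 samples of a group come from separate animals, so the p-values cover the variation among these samples, which may be technical. The treatment note describes 3 months at 2.5% of the normal dose, whereas the labels of the single samples read 25%. The full dose was 7.5 mg/L of NTBC in the drinking water, and 4 arrays of each genotype on that dose (labelled 100%) serve below for comparison.

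Fah carries out the last step of tyrosine breakdown, and without it hepatocytes accumulate toxic tyrosine metabolites. NTBC (nitisinone) blocks an earlier step and so protects the liver, and lowering its dose injures the liver chronically. The protein p53 is a transcription factor that responds to DNA damage and other stress. It raises genes that halt the cell cycle (Cdkn1a, Ccng1), promote apoptosis (Bax, Bbc3, Eda2r, Phlda3) or restrain p53 itself (Mdm2). Through Cdkn1a, which encodes the inhibitor p21, it also lowers genes of mitosis, whose promoters are bound by repressor complexes at CHR elements and by the factor NF-Y at CCAAT boxes.

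Several promoters of the gene groups on which the results turn are printed here, because both groups are known for short elements in this region. The sequences are the 250 bases upstream of the annotated start, from RefSeq on the build GRCm38.p6, written 5′ to 3′ on the strand of the gene. In the first set, capitals mark the CHR element (TTTGAA or its reverse complement TTCAAA) and the CCAAT box (CCAAT or ATTGG). Cdc20 lies at chr4:118437344-118437593, Cdk1 at chr10:69352913-69353162, Ccnb1 at chr13:100786487-100786736 and Ccnb2 at chr9:70421555-70421804, all on the minus strand.
Cdc20: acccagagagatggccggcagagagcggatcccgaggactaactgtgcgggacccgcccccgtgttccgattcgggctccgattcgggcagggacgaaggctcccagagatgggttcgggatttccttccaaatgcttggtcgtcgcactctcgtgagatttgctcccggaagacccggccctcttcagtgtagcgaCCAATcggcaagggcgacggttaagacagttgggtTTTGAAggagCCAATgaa
Cdk1: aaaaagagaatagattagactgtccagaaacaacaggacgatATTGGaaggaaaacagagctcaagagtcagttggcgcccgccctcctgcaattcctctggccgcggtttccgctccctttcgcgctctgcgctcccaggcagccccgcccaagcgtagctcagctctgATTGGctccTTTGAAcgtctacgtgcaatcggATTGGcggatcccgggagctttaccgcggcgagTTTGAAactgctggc
Ccnb1: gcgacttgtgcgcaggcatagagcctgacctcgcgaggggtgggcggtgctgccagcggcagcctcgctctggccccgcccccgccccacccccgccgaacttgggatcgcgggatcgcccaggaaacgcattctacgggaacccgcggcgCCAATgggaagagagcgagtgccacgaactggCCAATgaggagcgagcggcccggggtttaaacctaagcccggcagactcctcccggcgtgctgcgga
Ccnb2: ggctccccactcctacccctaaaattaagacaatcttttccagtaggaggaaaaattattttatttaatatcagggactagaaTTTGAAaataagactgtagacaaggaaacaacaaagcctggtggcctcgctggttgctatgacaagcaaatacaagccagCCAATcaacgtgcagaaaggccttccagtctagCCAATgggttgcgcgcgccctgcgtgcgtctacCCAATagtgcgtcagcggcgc
Cdc20 holds a CHR element 18 bases and CCAAT boxes 53 and 8 bases upstream of its start. Cdk1 holds CHR elements 71 and 15 bases and CCAAT boxes 208, 80 and 48 bases upstream. Ccnb1 holds CCAAT boxes at 99 and 67 bases and no TTTGAA or TTCAAA in this window. Ccnb2 holds a CHR element at 167 bases and CCAAT boxes at 87, 54 and 21 bases. No marked match overlaps another. Of 27 G2/M and mitosis genes that were tested and have a promoter in the table, 22 (81.5%) held a CCAAT box, against 33.8% of all 32851 promoters, and 10 (37%) held a CHR element, against 16%. Ccnb2 was chosen for printing after its values were seen.

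The second set shows p53 target genes, and the capitals mark the p53 half-site, a palindrome of 10 bases searched by its consensus with no mismatch. Ccng1 lies at chr11:40755287-40755536, Bax at chr7:45466899-45467148 and Mdm2 at chr10:117710759-117711008, all on the minus strand. These 3 are shown because they hold a match. The same windows of Phlda3, Eda2r, Aen and Psrc1, whose levels fell more than those of Bax and Mdm2, hold 0 matches.
Ccng1: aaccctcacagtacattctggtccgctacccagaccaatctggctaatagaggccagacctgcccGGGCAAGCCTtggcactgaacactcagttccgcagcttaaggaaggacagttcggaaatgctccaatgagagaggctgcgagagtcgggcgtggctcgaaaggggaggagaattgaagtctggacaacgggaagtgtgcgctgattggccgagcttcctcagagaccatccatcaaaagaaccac
Bax: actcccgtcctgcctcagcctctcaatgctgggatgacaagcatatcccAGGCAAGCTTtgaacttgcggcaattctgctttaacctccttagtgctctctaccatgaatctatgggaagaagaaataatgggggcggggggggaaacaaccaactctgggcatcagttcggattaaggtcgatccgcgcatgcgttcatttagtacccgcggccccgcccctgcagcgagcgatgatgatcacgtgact
Mdm2: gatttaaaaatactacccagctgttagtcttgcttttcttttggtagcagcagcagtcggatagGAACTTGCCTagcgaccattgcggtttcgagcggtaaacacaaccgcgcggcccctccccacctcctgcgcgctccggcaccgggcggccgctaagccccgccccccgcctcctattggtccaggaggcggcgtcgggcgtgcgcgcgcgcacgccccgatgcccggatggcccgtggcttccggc
The match begins 185 bases upstream of the start in Ccng1, 201 bases upstream in Bax and 186 bases upstream in Mdm2. Of 32 tested p53 targets with a promoter in the table, 9 (28.1%) held a half-site, against 7.13% of all promoters. These matches describe the letters in the window only. The arrays measured no binding at them.

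Levels below are log2 processed intensities relative to the 75th percentile of each array, and differences are log2 fold changes, Fah-/- p53-/- over Fah-/-, each with its standard error. A gene was called at a Benjamini-Hochberg adjusted p under 0.05 in a limma fit over all 28 arrays (20302 features). On reduced NTBC 3175 features (15.6%) were called, of which 1998 (9.84%) were higher and 1177 (5.8%) lower in Fah-/- p53-/- livers. Changes of at least 2-fold were more often rises, with 917 called higher and 177 called lower. The median difference over all features was 0.04. Arrays of the genotypes did not overlap for 4874 features (24%), 2912 (14.3%) of them higher and 1962 (9.66%) lower.

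The genotypes lay on separate slides, so that slide and genotype cannot be told apart. The Fah-/- p53-/- arrays had 66.2 to 68.5% of probes well above background, against 57.2 to 59.6% of probes on Fah-/- arrays, without overlap. Among the 1998 features called higher, 613 were not above background on any Fah-/- array. Among probes above background on all 8 arrays, 1077 were called higher and 1107 lower, of 16441 features. Normexp background correction adds an offset, which compresses dim signals. With it 113 features were called higher and 108 lower, and the median residual spread of a feature was 0.34 in place of 0.26. Among 6132 bright features, with a mean level over 2-fold above the 75th percentile, the spread was 0.29 in place of 0.17. The cause of the lower counts was not tested. Y-linked transcripts (Ddx3y, Eif2s3y, Kdm5d, Uty) were above background on all 8 arrays and Xist on none, so all samples were male by their transcripts. The summed level of 15 hepatocyte markers overlapped between the genotypes. It ranged over 11.37 to 11.54 in Fah-/- p53-/- livers and 11.34 to 11.55 in Fah-/- livers. Of the 15, 1 was called lower (6.67%, near the 5.8% of all features). At an unadjusted p under 0.05 by limma, 3 were lower and 1 higher. The called marker was Apob, with 6.83 to 7.12 in Fah-/- p53-/- livers and 7.36 to 7.75 in Fah-/- livers.

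The targeted genes were read by probes that need not lie in the deleted part. A dimmer probe of Trp53 was lower in Fah-/- p53-/- livers, with levels of -2.46, -1.93, -2.06 and -2.44, against -0.02, -0.64, -0.32 and -0.07 in Fah-/- livers (log2 fold change -1.96 ± 0.17, limma adjusted p = 9.73e-08 over all probes). The other Trp53 probe, which is brighter, had 1.42, 1.3, 0.93 and 1.06 in Fah-/- p53-/- livers, against 0.62, 0.72, 1.10 and 1.25 in Fah-/- livers. These ranges overlapped (log2 fold change 0.26 ± 0.14, adjusted p = 0.221). The probes of this gene thus disagreed, and their mean differed by -0.85 with an adjusted p of 5.13e-05. The probe of Fah had -1.47, -0.83, -0.89 and -0.81 in Fah-/- p53-/- livers, against -0.09, -0.09, -0.10 and 0.02 in Fah-/- livers (log2 fold change -0.94 ± 0.21, adjusted p = 0.00374). Both genotypes lack Fah function by their labels. The Fah signal was above background on all 8 arrays.

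Several p53 targets were lower. Of 40 p53 targets tested, 13 fell and 2 rose in Fah-/- p53-/- livers, with a median log2 fold change of -0.25 against 0.04 over all features. The 13 falls are a larger share of the list (32.5%) than the 5.8% called lower among all features. Eda2r, a death receptor of the TNF family, had -4.11, -3.12, -2.90 and -4.59 in Fah-/- p53-/- livers, against -0.29, -1.64, -0.93 and -1.83 in Fah-/- livers. No Fah-/- p53-/- value reached the lowest Fah-/- value (log2 fold change -2.51 ± 0.42, adjusted p = 0.000342). Phlda3, an inhibitor of Akt signalling, had 0.02, 0.57, 0.56 and 0.00 in Fah-/- p53-/- livers, against 3.42, 2.23, 2.70 and 1.78 in Fah-/- livers. Its Fah-/- values spread over more than 1.6 units, yet all lay above the other group (log2 fold change -2.24 ± 0.27, adjusted p = 8.25e-06). Aen, an apoptosis-enhancing nuclease, had 1.08, 1.0, 0.90 and 0.48 in Fah-/- p53-/- livers, against 2.75, 2.22, 2.46 and 2.33 in Fah-/- livers. The spread within each genotype was smaller than the gap between them (log2 fold change -1.57 ± 0.14, adjusted p = 1.26e-07). Ccng1 (cyclin G1), whose promoter is shown above, had 1.5, 1.59, 1.79 and 1.40 in Fah-/- p53-/- livers, against 3.46, 3.11, 3.28 and 2.55 in Fah-/- livers, again without overlap (log2 fold change -1.53 ± 0.20, adjusted p = 2.49e-05).

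Smaller falls without overlap were found for a further 7 targets. The kinase gene Plk2 fell by 1.08 ± 0.25 (adjusted p = 0.00488). The RNA-binding factor Zmat3 fell by 0.93 ± 0.21 (adjusted p = 0.00364), and Dglucy, a D-glutamate cyclase, fell by 0.96 ± 0.15 (adjusted p = 0.000211). Bax, a pore-forming apoptosis effector, had 0.08, 0.75, 0.42 and 0.19 in Fah-/- p53-/- livers, against 1.48, 1.11, 1.27 and 0.89 in Fah-/- livers (log2 fold change -0.83 ± 0.13, adjusted p = 0.000209). Mdm2, the ubiquitin ligase that degrades p53, had 0.65, 0.73, 0.67 and 0.47 in Fah-/- p53-/- livers, against 1.55, 1.25, 0.98 and 1.11 in Fah-/- livers (log2 fold change -0.59 ± 0.12, adjusted p = 0.00181). The Fah-/- p53-/- level was thus 0.564 of the Fah-/- level for Bax and 0.663 for Mdm2. The DNA polymerase gene Polk fell by 0.62 ± 0.10 (adjusted p = 0.000352). The ribosomal protein gene Rps27l fell by 0.45 ± 0.13 (adjusted p = 0.0162). The call of Rps27l was lost without Fah-/- replicate 1 (adjusted p = 0.0555), without Fah-/- replicate 2 (0.0532) or without Fah-/- p53-/- replicate 2 (0.0525).

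Cdkn1a had -1.12, 1.90, 0.30 and -0.87 in Fah-/- p53-/- livers, against 2.27, 0.69, 1.54 and 1.44 in Fah-/- livers. The Fah-/- p53-/- values spanned about 3 units, and replicate 2 lay above 3 of the 4 Fah-/- values. It was called lower (log2 fold change -1.43 ± 0.43, adjusted p = 0.0238), but the adjusted p was 0.0923 without Fah-/- replicate 1, 0.0989 without Fah-/- p53-/- replicate 1 and 0.0992 without Fah-/- p53-/- replicate 4. Psrc1, a spindle protein, overlapped as well (log2 fold change -1.86 ± 0.57, adjusted p = 0.0297). Its adjusted p was 0.0512 to 0.127 when Fah-/- replicate 1, 2 or 3 or Fah-/- p53-/- replicate 1 or 4 was left out. The targets that rose were Ckap2, a spindle-associated gene that also peaks in mitosis, and Pidd1, a death-domain adaptor. Ckap2 was at least 3.33-fold higher, being above background on no Fah-/- array, and Pidd1 rose by 0.44 ± 0.14 (adjusted p = 0.0288). Pidd1 lost its call without replicate 1 or 2 of either genotype (adjusted p = 0.0694 to 0.114).

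Other well-known targets did not pass the test. Gdf15, a stress hormone, had 2.43, 2.96, 2.28 and 1.74 in Fah-/- p53-/- livers, against 3.32, 2.60, 2.66 and 3.80 in Fah-/- livers (log2 fold change -0.74 ± 0.31, adjusted p = 0.107). Bbc3, which encodes the apoptosis activator PUMA, averaged 2.12 ± 0.21 in Fah-/- p53-/- livers and 2.23 ± 0.06 in Fah-/- livers (adjusted p = 0.727). The adjusted p was 0.284 for Pmaip1, which encodes NOXA, and 0.638 for the death receptor gene Fas. With normexp correction 7 of the 40 targets were called lower, and with the replicate number as a block 7 were lower.

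**Figure D1:**
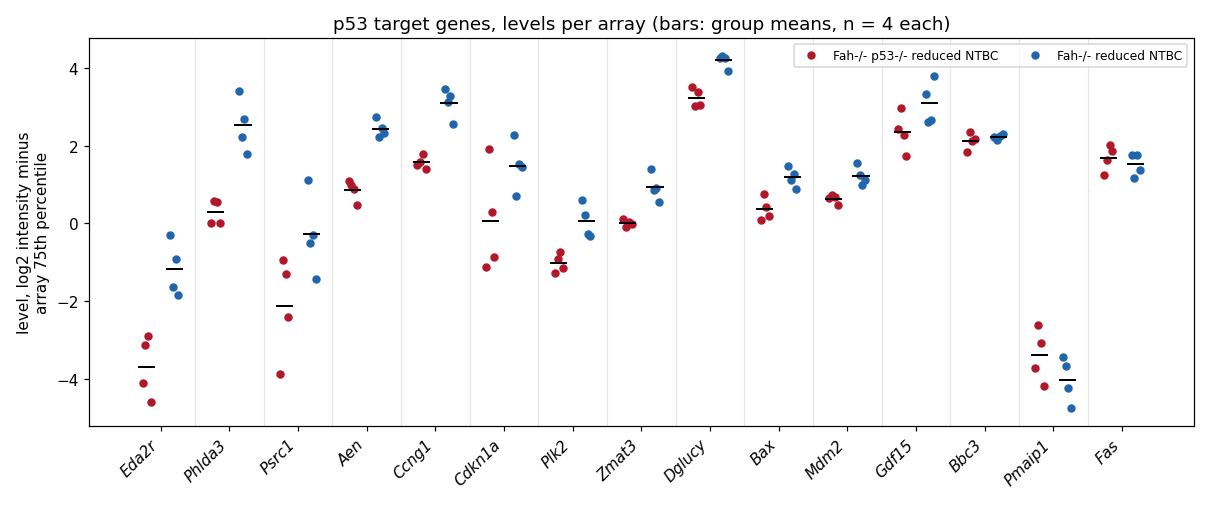
Levels of 15 p53 target genes on each array (log2 intensity minus the 75th percentile of the array), Fah-/- p53-/- in red left of Fah-/- in blue, with bars at the means of 4 arrays. Eda2r, Phlda3, Aen, Ccng1, Plk2, Zmat3, Dglucy, Bax and Mdm2 separate completely, Psrc1, Cdkn1a, Gdf15, Bbc3, Pmaip1 and Fas overlap.

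Genes of mitosis were higher in Fah-/- p53-/- livers. Of 32 G2/M and mitosis genes tested, 26 rose and none fell (29 rose and 0 fell at an unadjusted p under 0.05), and their median log2 fold change was 2.40, against 0.04 over all features. The rises make 81.2% of the list, against 9.84% of all features. Cdc20, which activates the anaphase-promoting complex, had 0.34, 2.59, 2.37 and 1.93 in Fah-/- p53-/- livers, against -1.66, -1.28, -1.74 and -1.47 in Fah-/- livers. Replicate 1 was the lowest Fah-/- p53-/- sample but still lay above every Fah-/- sample (log2 fold change 3.35 ± 0.61, adjusted p = 0.000731). Ccnb2 (cyclin B2) had -0.08, 2.07, 1.60 and 1.04 in Fah-/- p53-/- livers, against -1.24, -1.04, -1.14 and -1.34 in Fah-/- livers, with the same lowest sample (log2 fold change 2.35 ± 0.60, adjusted p = 0.0095). Mki67, the gene of the proliferation marker Ki-67, had -0.31, 1.80, 1.61 and 0.94 in Fah-/- p53-/- livers, against -1.83, -1.29, -2.20 and -1.84 in Fah-/- livers (log2 fold change 2.80 ± 0.67, adjusted p = 0.00597). In these genes the samples of the genotypes did not overlap. Cdk1, the mitotic kinase, had -2.27, -0.32, -0.42 and -0.85 in Fah-/- p53-/- livers, against -4.97, -3.72, -4.44 and -4.81 in Fah-/- livers, and 1 of the 4 Fah-/- arrays was above background (log2 fold change 3.52 ± 0.74, adjusted p = 0.0023).

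For 11 of the 32 members no Fah-/- array was above background, so that only a lower limit of the fold can be given. With these at their limits the median of the list was 2.10, and likewise the medians given below were 0.67 for S phase genes, 0.73 for fetal genes and 1.37 for female-biased transcripts. Such limits set the mean of the bright group against the lowest level that counted as above background on the other arrays. Cenpf, a kinetochore protein gene, was at least 9.25-fold higher (adjusted p = 0.000727). Ccnb1 (cyclin B1) was at least 4.25-fold higher (adjusted p = 0.0024), and the mitotic kinase gene Aurkb at least 3.1-fold higher (adjusted p = 0.00135). Outside the list, the kinase gene Pbk was at least 7.9-fold higher (adjusted p = 0.000315), the kinetochore gene Ska1 at least 4.33-fold (adjusted p = 0.000856) and the scaffold gene Iqgap3 at least 3.84-fold (adjusted p = 0.00257). Tpx2, a spindle assembly factor, was above background on 1 Fah-/- array and differed by 3.93 ± 0.60 (adjusted p = 0.000138).

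The count of mitosis genes called higher was 23 to 28 when any single array was left out. It was 18 in the deposited value table, 13 of the members that were above background on all 8 arrays, and 8 with normexp correction. In every Fah-/- p53-/- sample the summed level of the list lay above that of every Fah-/- sample, with 3.61 to 5.48 against 2.46 to 2.80. In whole-liver RNA, more cells expressing a gene and more RNA per such cell cannot be told apart.

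DNA replication genes were also more often higher, with a smaller median. Of 30 S phase genes tested, 16 rose and 1 fell (53.3% and 3.33%, against 9.84% and 5.8% of all features), with a median of 0.69. Mcm2, a subunit of the replicative helicase, had -0.23, 0.27, 0.34 and 0.58 in Fah-/- p53-/- livers, against -0.81, -1.21, -1.15 and -1.21 in Fah-/- livers (log2 fold change 1.34 ± 0.27, adjusted p = 0.00169). Rrm1, of the enzyme that makes deoxynucleotides, had 0.47, 1.05, 1.06 and 0.76 in Fah-/- p53-/- livers, against -0.33, -0.14, -0.18 and -0.60 in Fah-/- livers (log2 fold change 1.15 ± 0.22, adjusted p = 0.00111). Gins2 differed by 1.31 ± 0.29 (adjusted p = 0.00388) and Uhrf1, a factor of DNA methylation maintenance, by 2.73 ± 0.66 (adjusted p = 0.00626). Mcm5 differed by 1.63 ± 0.48, but its adjusted p was 0.0514 to 0.0668 without Fah-/- replicate 1 or without Fah-/- p53-/- replicate 2, 3 or 4. The member that fell was Mcm10 (log2 fold change -1.14 ± 0.22, adjusted p = 0.001), named after its value was seen. The count of rises depended on single arrays. It was 20 without Fah-/- p53-/- replicate 1, 8 without Fah-/- p53-/- replicate 3, 9 without Fah-/- p53-/- replicate 4, 9 without Fah-/- replicate 1 and 10 without Fah-/- p53-/- replicate 2 or Fah-/- replicate 3.

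**Figure D2:**
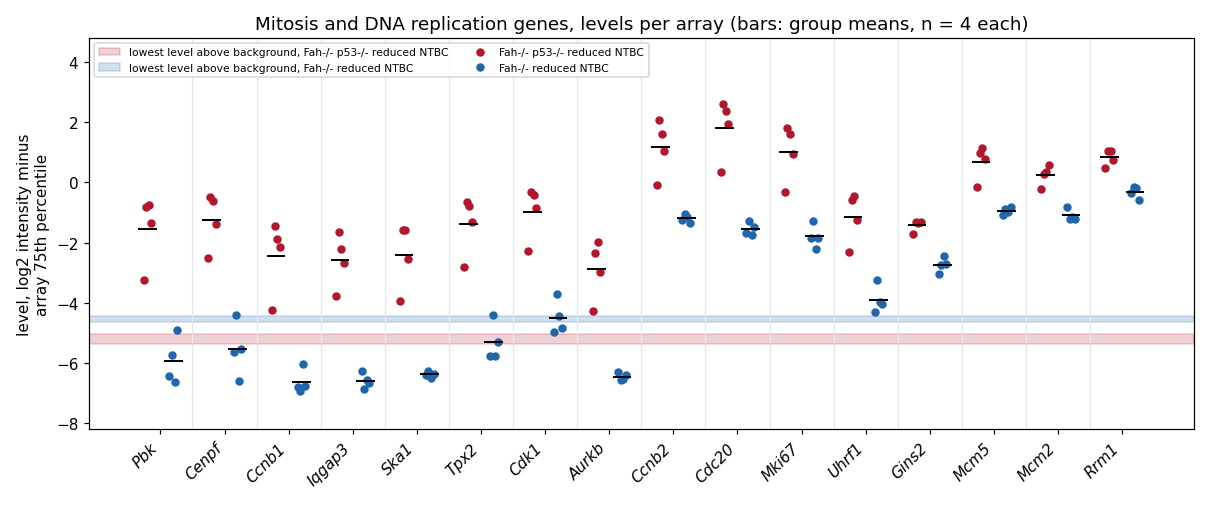
Levels of 16 genes of mitosis and DNA replication on each array (log2 intensity minus the 75th percentile of the array), Fah-/- p53-/- in red left of Fah-/- in blue, bars at the means of 4 arrays. The bands show the range over the 4 arrays of each genotype of the lowest level that counted as above background, and the Fah-/- values of Ccnb1, Iqgap3, Ska1 and Aurkb all lie under their band.

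DNA repair and checkpoint genes were mixed, with 4 of 31 higher and 3 lower (12.9% and 9.68%), shares near the 9.84% and 5.8% of all features. Leaving out any single array gave 3 to 6 higher (6 without Fah-/- p53-/- replicate 1, at most 4 otherwise) and 1 or 2 lower. Chek1, the kinase of the replication checkpoint, was at least 2.1-fold higher and above background on no Fah-/- array (adjusted p = 0.00399). Gadd45b, a stress-inducible growth arrest gene, had 0.59, 1.43, 0.85 and 1.11 in Fah-/- p53-/- livers, against 0.48, -0.42, -0.26 and -0.46 in Fah-/- livers (log2 fold change 1.16 ± 0.26, adjusted p = 0.00426). The samples did not overlap. The related Gadd45g had 4.25, 5.14, 5.36 and 3.80 in Fah-/- p53-/- livers, against 3.75, 3.27, 3.12 and 3.04 in Fah-/- livers (log2 fold change 1.34 ± 0.44, adjusted p = 0.0423), and its adjusted p was 0.0822 to 0.135 when Fah-/- replicate 2, 3 or 4 or Fah-/- p53-/- replicate 2 or 3 was left out.

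Of the genes typical of fetal liver and liver tumours, 11 of 35 rose and none fell (16 and 1 at an unadjusted p under 0.05), with a median of 0.77. The rises make 31.4% of the list, against 9.84% of all features. The imprinted neighbours Igf2, a fetal growth factor, and H19, a non-coding RNA, had the largest differences of this list. Igf2 had 0.83, 6.87, 5.99 and 4.24 in Fah-/- p53-/- livers, against -5.09, -3.35, -4.75 and -4.28 in Fah-/- livers. The lowest Fah-/- p53-/- sample, replicate 1, lay over 4 units above the highest Fah-/- sample, and the other 3 lay higher still (log2 fold change 8.85 ± 0.80, adjusted p = 1.52e-07). H19 had 3.25, 6.97, 6.16 and 5.01 in Fah-/- p53-/- livers, against -2.84, -2.85, -2.54 and -3.17 in Fah-/- livers, in the same order of samples among Fah-/- p53-/- livers (log2 fold change 8.20 ± 0.68, adjusted p = 3.99e-08). Of the Fah-/- arrays 1 was above background for Igf2 and 4 were for H19. Prom1, a surface protein of progenitor and bile duct cells, was at least 4.93-fold higher (adjusted p = 0.000106). The fetal gene Bex1 was at least 4.14-fold higher (adjusted p = 0.00301). Prom1 and Bex1 were above background on no Fah-/- array. Scd2, a fatty acid desaturase that predominates before birth, had 5.08, 4.31, 5.17 and 4.91 in Fah-/- p53-/- livers, against 3.24, 2.98, 2.08 and 1.02 in Fah-/- livers (log2 fold change 2.54 ± 0.59, adjusted p = 0.005). Igf2bp3, an RNA-binding protein of fetal tissue and tumours, differed by 1.88 ± 0.40 (adjusted p = 0.00251). Its Fah-/- values of -5.47, -4.92 and -6.01 lay under the lowest level above background of their arrays (-4.50, -4.52 and -4.44). With normexp correction Igf2bp3 differed by 0.41 and was not called. The fetal serum protein gene Afp had 2.10, 3.93, 3.42 and 2.78 in Fah-/- p53-/- livers, against 2.77, 2.38, 1.78 and 1.21 in Fah-/- livers, which overlapped (log2 fold change 1.02 ± 0.57, adjusted p = 0.235). Gpc3, a glypican used as a tumour marker, overlapped too (log2 fold change 1.21 ± 0.43, adjusted p = 0.0588). With normexp correction 4 members of the list were called higher.

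Sex-biased liver transcripts differed although all samples were male by their transcripts. In rodents these genes follow the sex-specific rhythm of growth hormone secretion. Of 21 male-biased transcripts tested 14 fell and 1 rose (median -1.63), and of 23 female-biased transcripts 10 rose and none fell (median 1.41, with 15 and 1 at an unadjusted p under 0.05). The falls make 66.7% of the male-biased list, against 5.8% of all features, and the rises 43.5% of the female-biased list, against 9.84%. Cyp4a12a, a fatty acid hydroxylase of male liver, had -0.65, 1.04, -0.05 and 0.79 in Fah-/- p53-/- livers, against 5.65, 6.23, 5.42 and 6.34 in Fah-/- livers. The samples of the genotypes were at least 4 units apart (log2 fold change -5.63 ± 0.62, adjusted p = 2.92e-06). Elovl3, a fatty acid elongase, had -3.84, -5.17, -4.32 and -4.29 in Fah-/- p53-/- livers, against -1.38, 0.33, -0.21 and 1.21 in Fah-/- livers (log2 fold change -4.39 ± 0.89, adjusted p = 0.00175). In Elovl3 too every Fah-/- p53-/- sample lay below every Fah-/- sample. Susd4, a complement regulator, had -3.96, -3.21, -3.23 and -2.65 in Fah-/- p53-/- livers, against -0.41, 1.12, 0.47 and 1.35 in Fah-/- livers (log2 fold change -3.90 ± 0.52, adjusted p = 2.74e-05). Cyp7b1, an oxysterol hydroxylase, fell by 2.20 ± 0.28 (adjusted p = 1.51e-05).

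Major urinary proteins, pheromone carriers made in quantity by male liver, were lower. Mup3 had 3.93, 3.20, 2.44 and 2.0 in Fah-/- p53-/- livers, against 6.82, 8.09, 7.09 and 7.76 in Fah-/- livers (log2 fold change -4.55 ± 0.92, adjusted p = 0.00172). Mup1 differed by -3.88 ± 1.09 (adjusted p = 0.0172, and 0.0645 without Fah-/- p53-/- replicate 4), Mup2 by -4.78 ± 1.19 (adjusted p = 0.00817) and Mup5 by -5.49 ± 1.25 (adjusted p = 0.00437). Mup genes are near-identical copies, so their probes may share signal and the values are uncertain for a single copy. Hsd3b5, a steroid dehydrogenase of male liver, spread widely in Fah-/- livers, with -5.39, -6.29, -4.91 and -5.66 in Fah-/- p53-/- livers, against -4.60, -0.62, -3.37 and -0.05 in Fah-/- livers (log2 fold change -3.40 ± 0.78, adjusted p = 0.00447). It was above background on 1 of 4 Fah-/- p53-/- arrays and 3 of 4 Fah-/- arrays.

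On the female-biased side, Hao2, a hydroxy acid oxidase, had 1.97, -0.69, 1.25 and 1.49 in Fah-/- p53-/- livers, against -4.46, -4.58, -5.42 and -5.39 in Fah-/- livers, and was at least 45.3-fold higher (adjusted p = 7.58e-06). Cux2, a transcription factor expressed in female liver, had -1.49, -0.86, -0.75 and -1.01 in Fah-/- p53-/- livers, against -1.68, -2.59, -3.35 and -4.62 in Fah-/- livers (log2 fold change 2.03 ± 0.47, adjusted p = 0.00484). In both genes the samples of the genotypes did not overlap, although those of Cux2 came close. Hamp2, of the hepcidin family, differed by 2.84 ± 0.60 (adjusted p = 0.00242). Acot3, an acyl-CoA thioesterase, differed by 2.41 ± 0.49 (adjusted p = 0.00186). The transporter gene Slc22a26 differed by 1.78 ± 0.41 (adjusted p = 0.00494), and Slc22a29, of the same family, was at least 14.6-fold higher (adjusted p = 3.92e-07).

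Sulfotransferases of the Sult2a family, which conjugate hydroxysteroids, were among the features that rose most. Sult2a6 had 7.06, 7.14, 7.22 and 7.0 in Fah-/- p53-/- livers, against -2.14, -3.31, -2.99 and -4.05 in Fah-/- livers (log2 fold change 10.22 ± 0.70, adjusted p = 2.6e-09). Sult2a4 had 3.60, 3.66, 3.73 and 3.44 in Fah-/- p53-/- livers, against -5.54, -6.76, -6.74 and -6.62 in Fah-/- livers, and was at least 279-fold higher because no Fah-/- array was above background (adjusted p = 5.31e-11). Sult2a3 was at least 275-fold higher (adjusted p = 1.42e-08) and Sult2a5 at least 22.6-fold (adjusted p = 1.15e-06). All 4 Fah-/- p53-/- samples were high for each of these probes. The members of this family are close copies, so the 4 probes may not be independent.

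The calls of these lists depended less on single arrays than on the background correction. The falls of male-biased transcripts numbered 13 to 16 when single arrays were left out, 10 with normexp correction and 12 with the replicate block. The rises of female-biased transcripts numbered 10 to 12, 6 and 10 in the same settings.

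Among the largest falls outside these lists were Smpx, a small muscle protein gene, Meig1, known from spermatogenesis, Nat8, an acetyltransferase, Ces3b, a carboxylesterase, and Acsm2, an acyl-CoA synthetase. Ces3b had 4.93, 4.59, 4.42 and 3.50 in Fah-/- p53-/- livers, against 7.35, 8.19, 7.90 and 8.23 in Fah-/- livers (log2 fold change -3.56 ± 0.47, adjusted p = 2.64e-05). Acsm2 had -5.57, -4.91, -4.70 and -5.27 in Fah-/- p53-/- livers, against -1.91, -1.14, -1.66 and -1.84 in Fah-/- livers (log2 fold change -3.47 ± 0.25, adjusted p = 3.46e-09). Its Fah-/- p53-/- values lay near the lowest level above background of those arrays, -5.37 to -5.05, so the size rests in part on background signal. With normexp correction Acsm2 differed by -1.39 and was not called. Nat8 fell by 3.63 ± 0.68 (adjusted p = 0.000845), Meig1 by 3.76 ± 0.51 (adjusted p = 3.44e-05) and Smpx by 3.90 ± 0.52 (adjusted p = 3.11e-05). Gria3, a glutamate receptor subunit, was at least 4.33-fold lower and above background on no Fah-/- p53-/- array (adjusted p = 0.000606).

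Genes of amino acid and secretory stress were more often lower, with 6 of 30 ATF4 and ER stress genes lower (20%, against 5.8% of all features), 1 higher and a median of -0.30. Asns, which makes asparagine and is a standard ATF4 target, had -1.85, 2.10, 0.71 and -0.55 in Fah-/- p53-/- livers, against 3.93, 2.64, 2.80 and 3.65 in Fah-/- livers. The Fah-/- p53-/- samples spread over nearly 4 units and all lay below the Fah-/- samples (log2 fold change -3.15 ± 0.66, adjusted p = 0.00236). Trib3, a pseudokinase induced by ATF4, had 2.70, 2.81, 2.55 and 2.97 in Fah-/- p53-/- livers, against 3.90, 3.24, 3.64 and 4.43 in Fah-/- livers (log2 fold change -1.04 ± 0.27, adjusted p = 0.01). Slc7a11, the cystine transporter and also an NRF2 target, overlapped (log2 fold change -1.94 ± 0.49, adjusted p = 0.00856). Vldlr, a lipoprotein receptor, was the member that rose (log2 fold change 1.90 ± 0.37, adjusted p = 0.00113). With normexp correction 2 members were lower, and with the replicate block 2.

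Of 41 NRF2 targets, the genes of oxidant defence, 2 rose and 5 fell (4.88% and 12.2%, against 9.84% and 5.8% of all features), with a median of -0.23. The falls numbered 3 to 7 when single arrays were left out, with 3 without Fah-/- replicate 1 or Fah-/- p53-/- replicate 3. Ggt1, which breaks down extracellular glutathione, had 0.03, 1.46, 1.33 and 1.45 in Fah-/- p53-/- livers, against -0.42, -1.07, -0.92 and -2.30 in Fah-/- livers (log2 fold change 2.25 ± 0.38, adjusted p = 0.00039). The reductase genes Nqo1 and Cbr3 and the haem oxygenase gene Hmox1 did not pass the test (adjusted p = 0.341, 0.424 and 0.356). The metallothioneins Mt1 and Mt2, which bind zinc, overlapped as well. Mt1 had 6.78, 6.52, 6.19 and 6.46 in Fah-/- p53-/- livers, against 7.40, 6.10, 6.87 and 7.27 in Fah-/- livers (log2 fold change -0.42 ± 0.33, adjusted p = 0.416), and Mt2 averaged 7.05 ± 0.32 in Fah-/- p53-/- livers and 7.52 ± 0.60 in Fah-/- livers (adjusted p = 0.298). The zinc importer gene Slc39a5 had -0.98, -1.20, -1.30 and -0.40 in Fah-/- p53-/- livers, against -4.08, -3.58, -3.86 and -3.50 in Fah-/- livers (log2 fold change 2.79 ± 0.27, adjusted p = 5.33e-07).

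Fatty acid oxidation and PPARA targets held 7 rises and 1 fall among 29 members (24.1% and 3.45%, against 9.84% and 5.8% of all features), with a median of 0.02. Leaving out single arrays gave 3 to 6 rises, 3 without Fah-/- p53-/- replicate 4 and 4 without Fah-/- p53-/- replicate 1 or Fah-/- replicate 1 or 2. Cyp4a14, a fatty acid hydroxylase, had 8.37, 8.23, 8.20 and 8.69 in Fah-/- p53-/- livers, against 6.35, 5.34, 6.56 and 6.68 in Fah-/- livers (log2 fold change 2.14 ± 0.44, adjusted p = 0.00185). All 4 Fah-/- p53-/- samples were the higher ones. Acot2, a mitochondrial thioesterase, had -0.32, -0.84, -0.94 and 0.20 in Fah-/- p53-/- livers, against -1.97, -2.78, -2.27 and -2.06 in Fah-/- livers (log2 fold change 1.80 ± 0.24, adjusted p = 2.49e-05). The hormone gene Fgf21, which both PPARA and ATF4 raise, was the member that fell, with -0.59, 2.07, 0.60 and 1.36 in Fah-/- p53-/- livers, against 4.27, 1.77, 3.53 and 3.84 in Fah-/- livers (log2 fold change -2.49 ± 0.57, adjusted p = 0.00461). Of 28 lipogenesis genes 5 fell and 2 rose (17.9% and 7.14%, against 5.8% and 9.84% of all features). Acacb, a carboxylase that forms malonyl-CoA, was among those that fell, with overlapping samples (log2 fold change -1.16 ± 0.30, adjusted p = 0.00943). Leaving out single arrays gave 1 to 8 falls of lipogenesis genes, 8 without Fah-/- p53-/- replicate 1, 1 without Fah-/- p53-/- replicate 2 and 2 without Fah-/- replicate 1 or 2.

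Clock genes were variable among Fah-/- p53-/- livers, and the labels give only that experiments were done in the daytime. Of 19 tested, 2 rose, a share close to the 9.84% of all features, and 4 fell (21.1%, against 5.8%). The falls numbered 8 without Fah-/- p53-/- replicate 1 and 1 or 2 without any other array. Dbp, an output gene of the clock, had 6.13, 1.24, 3.22 and 4.69 in Fah-/- p53-/- livers, against 5.71, 6.48, 5.83 and 6.15 in Fah-/- livers. The Fah-/- p53-/- samples spanned nearly 5 units and the Fah-/- samples under 1 (log2 fold change -2.23 ± 0.59, adjusted p = 0.0122). Arntl, the core activator, had -1.46, 1.13, 0.72 and 0.46 in Fah-/- p53-/- livers, against -1.38, -2.54, -1.01 and -0.74 in Fah-/- livers, so that replicate 1 of the Fah-/- p53-/- group lay among the Fah-/- samples (log2 fold change 1.63 ± 0.44, adjusted p = 0.0132). Its adjusted p was 0.0651 without Fah-/- replicate 2 and 0.0626 without Fah-/- p53-/- replicate 2. Cry1, a repressor of the clock, did not overlap (log2 fold change 1.37 ± 0.29, adjusted p = 0.00226). With normexp correction Cry1 differed by 0.22 and was not called.

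Secreted plasma proteins made by hepatocytes held 8 falls and no rise among 42 (13 and 0 at an unadjusted p under 0.05). The falls make 19% of the list, against 5.8% of all features, and numbered 5 without Fah-/- replicate 2 and 6 to 8 without any other array. Members of the terminal complement pathway were among them. C8b had -0.47, 1.48, 0.78 and -1.38 in Fah-/- p53-/- livers, against 1.61, 2.48, 1.89 and 2.78 in Fah-/- livers (log2 fold change -2.09 ± 0.43, adjusted p = 0.00205). C8a fell by 1.63 ± 0.44 (adjusted p = 0.0132) and C6 by 1.36 ± 0.24 (adjusted p = 0.000499). These 3 genes also stand in the male-biased list. Apob, the core apolipoprotein of VLDL, fell by 0.61 ± 0.16 (adjusted p = 0.0115). In other lists the share called lower lay near the 5.8% of all features or below it. Of 32 P450 genes of families 1 to 3, 2 were lower (6.25%) and 0 higher. Of 25 cholesterol synthesis genes 1 was lower (4%) and 0 higher, with 6 lower without Fah-/- p53-/- replicate 1 and 0 without Fah-/- p53-/- replicate 2 or 4. Of 26 interferon response genes 0 were called by limma in either direction (1 higher and 2 lower at an unadjusted p under 0.05).

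Markers of other liver cells gave few calls. None of 25 macrophage and 8 neutrophil markers was called by limma at an adjusted p under 0.05, with medians of 0.47 and 0.59 (0.40 and 0.22 with members above background on no Fah-/- array at their limits). At an unadjusted p under 0.05, 1 macrophage and 2 neutrophil markers were higher and 0 were lower. The summed macrophage level was 6.41 to 7.28 in Fah-/- p53-/- livers and 6.27 to 6.78 in Fah-/- livers. Of 25 stellate cell and matrix genes 1 rose (4%, against 9.84% of all features), the receptor gene Pdgfra (log2 fold change 0.71 ± 0.24, adjusted p = 0.0419). Its adjusted p was 0.0753 to 0.162 in 6 of 8 settings that left out a single array. Those were all except Fah-/- replicate 1 and Fah-/- p53-/- replicate 1. Of 20 lymphocyte markers 2 rose (10%, close to the 9.84% of all features), Cd3e and Cd4. Cd3e, a subunit of the T cell receptor complex, had -0.97, -0.91, -1.28 and -1.20 in Fah-/- p53-/- livers, against -2.59, -2.66, -2.12 and -1.96 in Fah-/- livers (log2 fold change 1.24 ± 0.14, adjusted p = 2.92e-06). Cd4 had -3.03, -3.12, -3.46 and -3.46 in Fah-/- p53-/- livers, against -4.50, -4.32, -4.05 and -4.00 in Fah-/- livers (log2 fold change 0.95 ± 0.18, adjusted p = 0.000799). With normexp correction the differences were 0.75 for Cd3e and 0.18 for Cd4, and neither gene was called. The summed lymphocyte level overlapped, with 1.75 to 2.50 in Fah-/- p53-/- livers and 1.71 to 1.97 in Fah-/- livers.

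Endothelial markers ran the other way, with 5 of 24 lower, 0 higher and a median of -0.32 (11 lower and 0 higher at an unadjusted p under 0.05 by limma). The falls make 20.8% of the list, against 5.8% of all features. Robo4 had 2.37, 2.39, 2.55 and 2.51 in Fah-/- p53-/- livers, against 3.06, 2.97, 2.86 and 2.94 in Fah-/- livers (log2 fold change -0.50 ± 0.15, adjusted p = 0.0245), and Pecam1, which encodes CD31, fell by 0.44 ± 0.14 (adjusted p = 0.0281). Their summed level did not overlap, with 6.18 to 6.50 in Fah-/- p53-/- livers and 6.59 to 6.86 in Fah-/- livers. The calls rested on single arrays. Robo4 lost its call without replicate 1 or 2 of either genotype (adjusted p = 0.0551 to 0.0669), Pecam1 without replicate 1 or 2 of Fah-/- or 2 or 4 of Fah-/- p53-/- livers (0.0559 to 0.0926), and leaving out single arrays left at most 4 such calls, 0 of them without Fah-/- p53-/- replicate 2 and 2 without Fah-/- replicate 1 or 2. Of 13 cholangiocyte markers 2 rose (15.4%, against 9.84% of all features), 1 of them Prom1. Of 6 erythroid markers 1 fell (16.7%, against 5.8% of all features), the haem synthesis gene Alas2 (log2 fold change -1.46 ± 0.35, adjusted p = 0.00578). The part of cell composition in the results above was not tested.

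**Figure D3:**
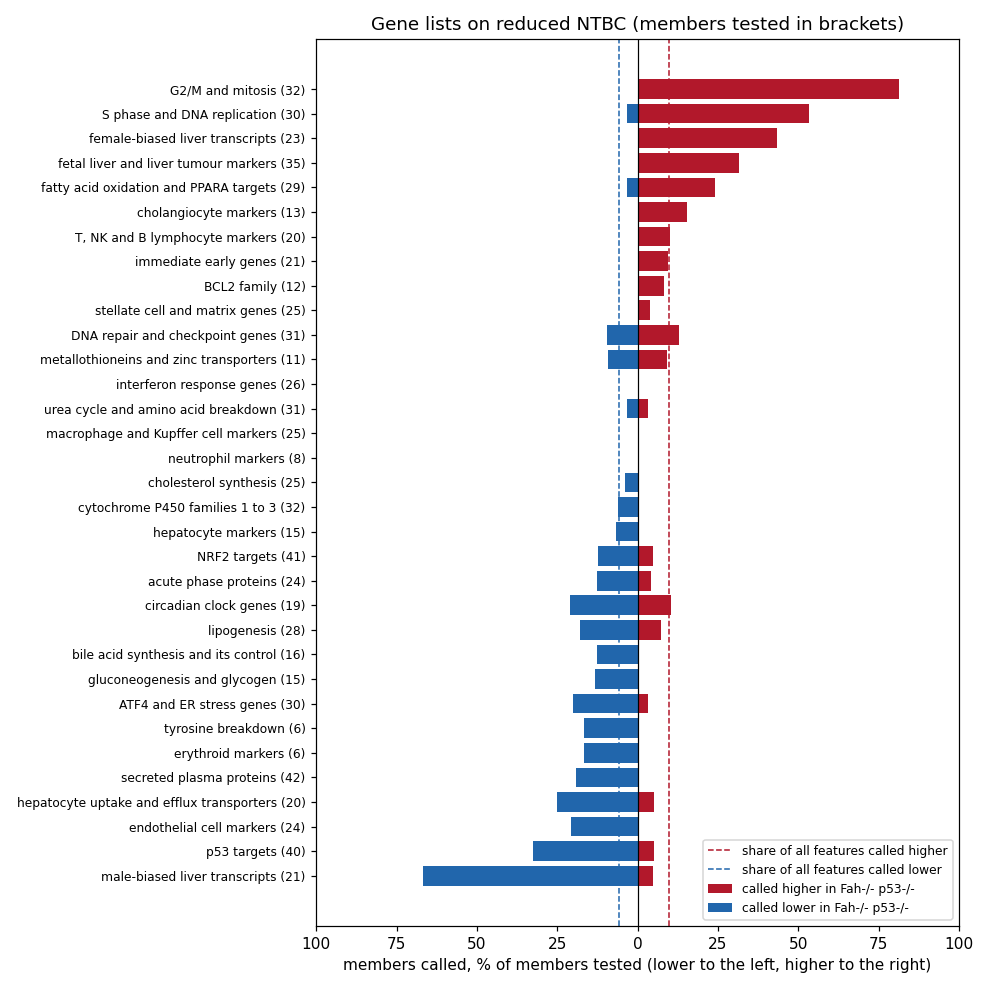
Share of the tested members of 33 gene lists called lower (blue, to the left) and higher (red, to the right) in Fah-/- p53-/- livers on reduced NTBC, in percent, with the number of members tested in brackets. Dashed lines give the share of all features, 5.8% lower and 9.84% higher, and mitosis, S phase, female-biased and male-biased lists extend farthest beyond them.

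On full NTBC, measured on 8 other arrays all of which were male by the same transcripts, the same comparison of genotypes called 2829 features (13.9%), 1288 (6.34%) higher and 1541 (7.59%) lower. Of all features 549 were called in the same direction at both doses, 17.3% of the calls on reduced and 19.4% of those on full NTBC, and 99 were called in opposite directions. The difference between the doses, tested as an interaction, was called for 2107 features (10.4%), with 1368 (6.74%) more positive and 739 (3.64%) more negative on reduced NTBC. With normexp correction the interaction was called for 78 features and the difference on full NTBC for 1959.

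The p53 targets fell further on reduced NTBC for several members. Of the 40, 6 had a more negative and 1 a more positive genotype difference than on full NTBC, against 3.64% and 6.74% of all features. Phlda3 differed by -2.24 ± 0.27 on reduced and 0.14 ± 0.27 on full NTBC (interaction -2.38 ± 0.38, adjusted p = 0.000384). Ccng1 differed by -1.53 ± 0.20 on reduced and -0.44 ± 0.20 on full NTBC (interaction adjusted p = 0.0167). Zmat3 differed by -0.93 ± 0.21 on reduced and 0.19 ± 0.21 on full NTBC (interaction adjusted p = 0.0172). Aen and Dglucy also had called interactions (adjusted p = 0.00683 and 0.0175). Bbc3 was among the 6 as well, but without a called fall on reduced NTBC. There it averaged 2.12 ± 0.21 in Fah-/- p53-/- livers and 2.23 ± 0.06 in Fah-/- livers. On full NTBC it averaged 3.08 ± 0.25 in Fah-/- p53-/- livers and 2.27 ± 0.41 in Fah-/- livers. Mdm2 was lower by nearly the same amount at both doses, with -0.59 ± 0.12 on reduced and -0.62 ± 0.12 on full NTBC (interaction 0.02 ± 0.17, adjusted p = 0.952). Cdkn1a differed by -1.43 ± 0.43 on reduced and -1.53 ± 0.43 on full NTBC, and its interaction of 0.09 ± 0.60 was not called.

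Igf2 and H19 rose far more on reduced NTBC. Igf2 differed by 8.85 ± 0.80 on reduced and 2.63 ± 0.80 on full NTBC (interaction 6.22 ± 1.14, adjusted p = 0.00133). H19 differed by 8.20 ± 0.68 on reduced and 2.56 ± 0.68 on full NTBC (interaction 5.64 ± 0.96, adjusted p = 0.000707). Mitosis genes gave 26 rises on reduced and 2 on full NTBC, among 32 tested, against 9.84% and 6.34% of all features. Yet none of the 32 interactions was called by limma (9 more positive and 0 more negative at an unadjusted p under 0.05). Cdc20, called at both doses, differed by 1.98 ± 0.61 on full NTBC (adjusted p = 0.0331, interaction adjusted p = 0.333). These data therefore do not show that the genotype difference of mitosis genes depended on the dose.

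The sex-biased pattern was wider on full NTBC. There 19 of 21 male-biased transcripts were lower and 19 of 23 female-biased ones higher, against 7.59% and 6.34% of all features. The genotype difference was called smaller on reduced NTBC for 8 male-biased and 5 female-biased members. These were more positive and more negative interactions, called for 6.74% and 3.64% of all features. Hsd3b5 differed by -3.40 ± 0.78 on reduced and -10.80 ± 0.78 on full NTBC (interaction 7.39 ± 1.10, adjusted p = 0.000209). On full NTBC its Fah-/- p53-/- values of -4.99, -5.40 and -5.20 lay under the lowest level above background of their arrays (-4.26, -4.24 and -4.53). The sizes given for Hsd3b5 thus rest in part on background signal. The related Hsd3b4 differed by -1.43 ± 0.59 and -8.66 ± 0.59 at the same doses (interaction adjusted p = 1.01e-05). Slc22a26 differed by 1.78 ± 0.41 on reduced and 6.78 ± 0.41 on full NTBC (interaction adjusted p = 1.1e-05). Its Fah-/- values on full NTBC, -4.99 to -4.27, lay near the lowest level above background of those arrays, -4.64 to -4.14. In the plot by dose, Hsd3b5 and Elovl3 levels of Fah-/- livers lay far lower on reduced than on full NTBC, while those of Fah-/- p53-/- livers were low at both. The interaction of Elovl3 was not called (adjusted p = 0.0859). For Sult2a4 all 4 Fah-/- p53-/- arrays and 0 Fah-/- arrays were above background at either dose, so its differences are lower limits and cannot be compared between the doses.

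Mt1 and Mt2 separated the genotypes on full NTBC, and their samples overlapped on reduced NTBC. Mt1 was higher by 4.34 ± 0.33 in Fah-/- p53-/- livers on full NTBC (interaction -4.76 ± 0.46, adjusted p = 1.02e-06), and Mt2 by 4.97 ± 0.29 (interaction -5.44 ± 0.41, adjusted p = 1.61e-08). Gadd45g changed direction, with 1.34 ± 0.44 on reduced and -2.54 ± 0.44 on full NTBC (interaction 3.88 ± 0.63, adjusted p = 0.000441). The T cell markers Cd3e and Cd4 differed by -0.02 ± 0.14 and -0.06 ± 0.18 on full NTBC, and both interactions were called (adjusted p = 0.000292 and 0.012). Each of the 4 groups lay on a slide of its own, so the interaction too cannot be told apart from differences between slides.

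**Figure D4:**
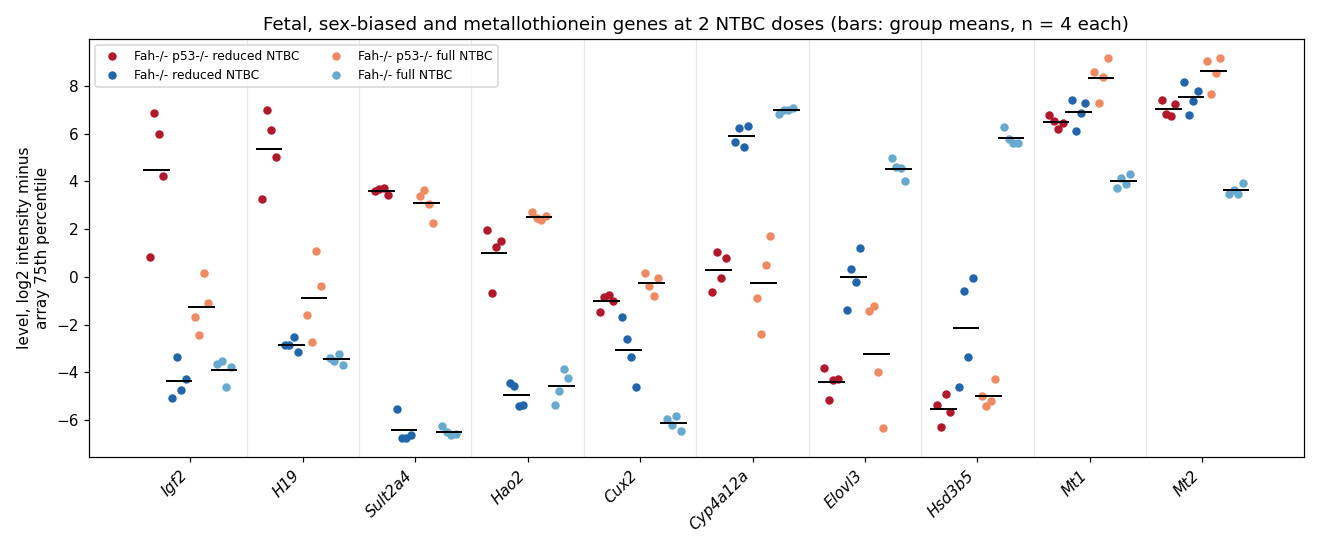
Levels of 10 genes on each array of 4 groups (log2 intensity minus the 75th percentile of the array), from left to right Fah-/- p53-/- and Fah-/- on reduced NTBC, then Fah-/- p53-/- and Fah-/- on full NTBC, bars at the means of 4 arrays. Igf2 and H19 are highest in Fah-/- p53-/- livers on reduced NTBC, and Mt1 and Mt2 are lowest in Fah-/- livers on full NTBC.

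**Figure D5:**
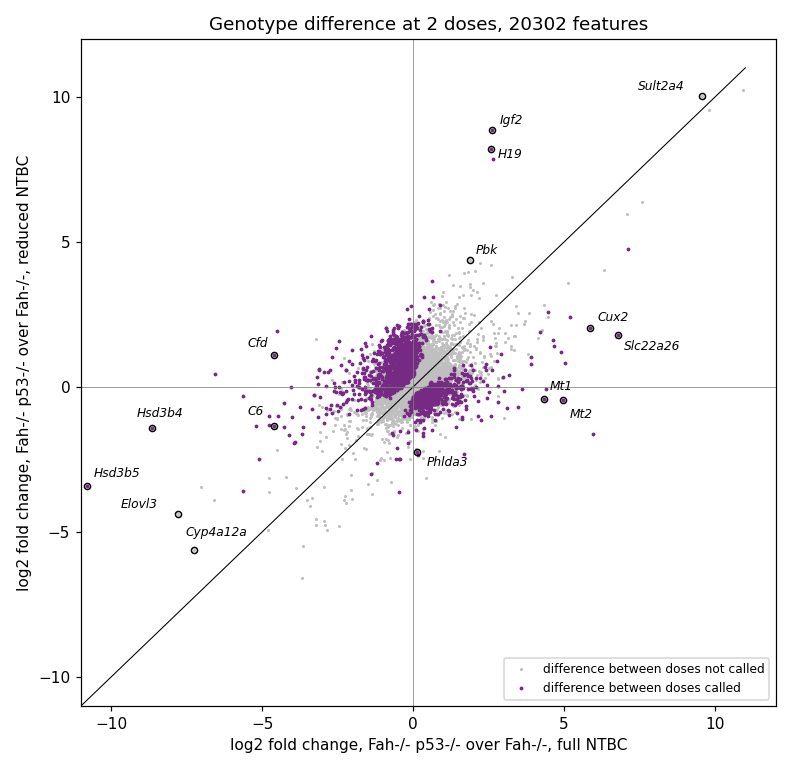
Log2 fold change of Fah-/- p53-/- over Fah-/- for 20302 features, on full NTBC (x axis) and on reduced NTBC (y axis), with the 2107 features whose difference between doses was called in purple and the others in grey. The line marks equal differences at both doses, Igf2 and H19 lie above it, and Mt1 and Mt2 below it near 0 on the y axis. Sult2a4 and Cux2 had 0 Fah-/- arrays above background on full NTBC, so their distance from the line is not a measured size. The positions of Hsd3b5 and Slc22a26 rest in part on signal near background.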

How the data were processed

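RNA of 28 liver samples in 7 groups of 4 was measured on single-colour Agilent arrays. The deposited scanner files hold the processed intensity of each spot, background-corrected by Agilent Feature Extraction (10.7.3.1 per the file headers, 10.5 per the submitters' processing notes). The deposited value table holds log2 values, whose scaling the sources used here do not give, and served only as an alternative. Labels gave the groups, and 0 columns were left unmapped.

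Spots of a probe were averaged after leaving out control and outlier spots. Log2 intensity minus the log2 75th percentile of the array was used. Of 41174 probes, 27508 exceeded background clearly on every array of some group, and the brightest probe stood for each gene, giving 20302 features, of which 14572 have a symbol. Symbols came from the RefSeq accession (GRCm38.p6 annotation, used for names and promoters only). Precision is limited by the 4 arrays per group. A single limma fit (limma 3.58.1, R 4.3.3) over group means had 21 residual degrees of freedom, and p-values were adjusted by Benjamini-Hochberg over all features. Tested on simulated data with 20265 features, it called 62 of 100 features changed by 1 log2 unit, 94 of 100 changed by 2 and 7 of 20065 unchanged ones. The simulated noise was normal, independent between features and free of slide effects. These counts therefore do not give the error rate of the real comparison, in which slide and genotype cannot be told apart. A summed level is the log2 of the summed linear levels of a list.

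The genes that may be named are the targeted genes, the 15 largest rises and falls without overlapping arrays, all p53 targets, from each list at most 6 called members, a fixed panel, and the 8 largest called interactions. Of these, mostly genes whose call held when single arrays were left out are printed. Mcm10 and Ccnb2 fall outside the rule and were chosen after their values were seen. The members and lists were chosen with earlier results of these data known. Same-numbered samples did not deviate together (correlations -0.23, -0.05, -0.09 and -0.03), so the numbers were not taken as pairs. Alternatives were normexp background correction, quantile normalisation, the deposited values, other probe filters, the mean of a gene's probes, fits of only the groups compared, a variance trend, a minimum change of 2-fold, the replicate block, each array left out in turn and, chosen after seeing the data, a common floor for dim probes. The planned normexp correction used median spot signals.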

Additional observations from a re-analysis of the deposited data

Results flagged for a closer look

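A sample standing far from the other 3 of its group was looked for in 214 sets of 4 values (the named genes in both genotypes on reduced NTBC, and the 75th percentile and share of probes above background of their arrays), by the gap to its neighbour as a share of the range of the group. Chance flags about 1 in 20 such sets, and 9 were flagged. In Fah-/- p53-/- livers replicate 1 stood apart for Fah (0.875 of the range), Gins2 (0.882) and Ggt1 (0.905), and replicate 2 for Cfd, which encodes complement factor D (0.842). In Fah-/- livers replicate 1 stood apart for Mcm2 (0.842) and Sult2a4 (0.884), and replicate 4 for Fah (0.861), Dglucy (0.837) and Rps27l (0.839).

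The genotype difference on reduced NTBC differed from that on full NTBC for 28 of 105 named genes by the interaction test of the limma fit, against 10.4% of all features. The named genes include the 8 largest called interactions, so the 2 shares are not comparable. Slides and groups cannot be told apart in it. The following values are log2 differences, reduced minus full, so a positive value means that the genotype difference was more positive on reduced NTBC. Among genes of the p53 response the values were -2.38 for Phlda3, -0.88 for Aen, -1.10 for Ccng1, -1.12 for Zmat3, -0.83 for Dglucy, -0.91 for Bbc3, 0.62 for Pidd1 and 3.88 for Gadd45g. The fetal genes gave 6.22 for Igf2 and 5.64 for H19. Female-biased genes gave -2.36 for Slc22a29, -3.82 for Cux2 and -5.00 for Slc22a26. No Fah-/- array was above background for Slc22a29 at either dose or for Cux2 on full NTBC, so their values rest in part on background signal and are not measured sizes. Steroid dehydrogenases gave 7.39 for Hsd3b5 and 7.24 for Hsd3b4, and the complement gene C6 gave 3.23. The values of Hsd3b5 and Slc22a26 also rest in part on signal near background. Metallothioneins gave -4.76 for Mt1 and -5.44 for Mt2. Among cell type markers the values were -0.76 for Robo4, -0.65 for Pecam1, 1.26 for Cd3e and 1.01 for Cd4. Gria3, above background only in Fah-/- livers on reduced NTBC among these groups, gave -3.16, which is likewise no measured size. The other values were -2.29 for Vldlr, -1.30 for Acacb, 2.65 for Arntl, -4.16 for the organic anion transporter gene Slco1a4 and 5.68 for Cfd.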

How the results depend on the processing

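The count of called features depended strongly on the processing. On reduced NTBC (3175 called, 1998 higher and 1177 lower, 62.9% higher) normexp correction gave 221 (113 higher, 108 lower, 51.1% higher), the deposited values 2104 (1207 higher), no filter on dim probes 6517 of 31663 (3764 lower, 42.2% higher), probes above background on all 8 arrays 1077 higher (49.3% higher) and a tested minimum change of 2-fold 44 (26 higher, 18 lower). Leaving out 1 array at a time gave 2213 (without Fah-/- p53-/- replicate 2) to 3011 (without Fah-/- replicate 4), with 1392 to 1950 higher and 775 (without Fah-/- replicate 2) to 1114 lower. Under normexp the median residual spread was 0.34 against 0.26, the difference on full NTBC had 1959 calls (438 higher) and its median over all features was 0.23, and the interaction had 78 (59 higher, 19 lower) with a median of -0.21. The cause was not tested. The interaction (2107) had 911 higher with probes above background on all 8 arrays, 39 (24 higher, 15 lower) at 2-fold and, without single arrays, 1397 (without Fah-/- reduced NTBC replicate 2) to 2306, with 940 to 1516 higher and 457 to 790 lower, 484 of them without Fah-/- p53-/- reduced NTBC replicate 2. On full NTBC (2829) the 2-fold test gave 159 (80 higher, 79 lower), and leaving out single arrays 2065 to 2698 (916 to 1212 higher, 1143 to 1486 lower). The 549 features shared between doses numbered 116 with normexp, 19 at 2-fold and 414 to 534 without single arrays. Quantile normalisation, the common floor, a variance trend, fitting only the groups compared, the mean of probes and the filter on the groups compared left the count on reduced NTBC within 1.5 times.

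The replicate numbers did not pair the samples. With them as a block, 1583 features were called on reduced NTBC (1228 higher, 355 lower, 77.6% higher), 1427 on full NTBC (750 higher, 677 lower), 2475 for the interaction and 245 shared between doses.

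Of 90 called genes named in the text, 46 kept their call with normexp, 80 with the deposited values, 68 with the replicate block and 19 at 2-fold, and 82 to 88 when single arrays were left out. The genes printed were mostly those whose call held without single arrays, so the last range was partly fixed by that choice. No called gene reversed. Directions turned only for genes not called, Bbc3 in the deposited values (0.044, adjusted p = 0.903), Trp53 (-0.85, adjusted p = 5.13e-05) and Fas (-0.015, adjusted p = 0.971) as means of their probes. Dim signal limits the mitosis genes, since 11 of 32 lay above background on no Fah-/- array.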

Other observations

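Cholesterol synthesis genes differed between the doses in their genotype difference. On full NTBC 4 of 25 were higher in Fah-/- p53-/- livers and 0 lower, against 6.34% and 7.59% of all features. On reduced NTBC 0 were higher and 1 lower, against 9.84% and 5.8% of all features. Of the 25 interactions 6 were called, all more negative on reduced NTBC, against 3.64% of all features. At an unadjusted p under 0.05 by limma, 10 were more negative and 0 more positive. Hepatocyte uptake and efflux transporters held 5 falls and 1 rise among 20 on reduced NTBC, with a median of -0.48. These are 25% and 5% of the list, against 5.8% and 9.84% of all features. The falls numbered 2 with normexp correction and 3 in the deposited values. For the transporters 4 interactions were called, all more negative, against 3.64% of all features.

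Further lists on reduced NTBC gave 1 rise and 3 falls among 24 acute phase proteins, 2 rises and 0 falls among 21 immediate early genes, 0 and 2 among 16 genes of bile acid synthesis, 0 and 2 among 15 of gluconeogenesis and glycogen, 1 and 1 among 31 urea cycle and amino acid breakdown genes, 1 and 0 among 12 of the BCL2 family, and 1 and 1 among 11 metallothioneins and zinc transporters. Over all features 9.84% were called higher and 5.8% lower. The shares called higher of immediate early genes (9.52%), the BCL2 family (8.33%) and metallothioneins and zinc transporters (9.09%) lay near the former. Of 6 genes of tyrosine breakdown Fah alone was called, and it was lower.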
